A study of Mus musculus with 13 samples.

Results

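The extracellular matrix and matrix protease genes of cultured mouse oligodendrocyte lineage cells were taken from a table of raw RNA-seq counts by gene symbol alone. The symbols covered collagens, laminins, thrombospondins, fibulins, elastin, fibronectin, tenascins, lecticans, link proteins, matrilins, testicans, ADAMTS and ADAMTS-like genes, matrix metalloproteinases and their tissue inhibitors. Of the 13549 genes in the table, 107 matched. They were 37 collagens, 9 laminins, 3 lecticans, 4 link proteins, 2 tenascins, 5 elastic fibre genes (elastin and 4 fibulins), fibronectin, 4 thrombospondins, 3 matrilins, 3 testicans, 18 ADAMTS proteases, 3 ADAMTS-like genes, 10 matrix metalloproteinases, 4 tissue inhibitors and 1 gene matched by its prefix only. The last is Col4a3bp, which encodes a ceramide transfer protein and is no collagen. It passed no test. A further 26 genes that fit the same symbols in RefSeq, 13 of them metalloproteinases, were not analysed here.

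Cells came from the brains of C57BL/6 mice and were compared in 4 groups, 2 libraries of control oligodendrocyte precursor cells (OPCs), 3 of Eed conditional knockout (cKO) OPCs, 2 of control immature oligodendrocytes (iOLs) and 2 of Eed cKO iOLs. Growth medium for OPCs held PDGF with NT-3, and iOLs were taken at day 2 of culture after thyroid hormone was added and PDGF withdrawn. Eed is a core gene of PRC2, the Polycomb complex that methylates a histone tail and holds many developmental genes silent. Mice were of postnatal day 7 for control OPC library 1 and Eed cKO OPC libraries 1 and 2, and of day 6 for the other 6 libraries, including all iOLs. The genotype entry of the labels reads EED cKO for controls too, so the titles gave the groups. The Cre driver, the deleted part of Eed and whether libraries came from separate animals or cultures are not given in the sources used here. The p-values therefore measure the spread between these libraries, which may be technical.

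The extracellular matrix is the mesh of secreted proteins and sugars around cells. Fibrillar collagens form its cables, basement membrane collagens and laminins form sheets along vessels and meninges, and elastin with fibulins forms elastic fibres. In the brain the matrix between cells is built mostly of hyaluronan with lecticans, link proteins and tenascins, several of them made by OPCs. ADAMTS proteases and metalloproteinases cut these proteins, and tissue inhibitors of metalloproteinases (TIMPs) block the cutting.

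PRC2 is known to bind promoters rich in the dinucleotide CG, so the letters before the start of 6 members are shown, chosen to span the patterns described below. Col18a1, Thbs2 and Timp2 were higher in Eed cKO cells of both stages, Col9a1 was higher in OPCs, Fbln5 was higher in iOLs, and Hapln2 was lower in iOLs. Each run gives the 250 bases before an annotated start in RefSeq, 5′ to 3′ along the gene (GRCm38.p6, the assembly also known as mm10), with every CG in capitals. CG reads the same on both strands. The windows are chr10:77166531-77166780 (minus strand) for Col18a1, chr17:14694263-14694512 (minus) for Thbs2, chr11:118355412-118355661 (minus) for Timp2, chr1:24177360-24177609 (plus) for Col9a1, chr12:101819120-101819369 (minus) for Fbln5 and chr3:88027512-88027761 (minus) for Hapln2.
Col18a1: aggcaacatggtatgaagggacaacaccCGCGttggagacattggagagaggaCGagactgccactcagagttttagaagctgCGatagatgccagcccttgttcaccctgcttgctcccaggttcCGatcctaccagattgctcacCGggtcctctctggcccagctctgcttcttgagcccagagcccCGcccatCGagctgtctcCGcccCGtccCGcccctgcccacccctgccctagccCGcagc
Thbs2: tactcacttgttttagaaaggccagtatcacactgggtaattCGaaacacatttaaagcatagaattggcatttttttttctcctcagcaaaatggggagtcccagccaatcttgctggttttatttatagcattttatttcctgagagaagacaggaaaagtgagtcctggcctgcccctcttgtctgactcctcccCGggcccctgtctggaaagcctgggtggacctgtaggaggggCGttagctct
Timp2: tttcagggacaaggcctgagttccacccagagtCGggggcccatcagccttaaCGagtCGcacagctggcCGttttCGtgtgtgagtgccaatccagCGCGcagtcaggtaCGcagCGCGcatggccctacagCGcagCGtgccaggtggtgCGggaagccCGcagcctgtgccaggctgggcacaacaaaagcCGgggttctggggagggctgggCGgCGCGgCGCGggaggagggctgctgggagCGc
Col9a1: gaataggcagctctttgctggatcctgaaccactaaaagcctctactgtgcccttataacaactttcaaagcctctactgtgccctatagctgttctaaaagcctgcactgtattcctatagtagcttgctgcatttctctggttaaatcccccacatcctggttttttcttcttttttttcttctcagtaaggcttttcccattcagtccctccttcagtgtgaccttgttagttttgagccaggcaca
Fbln5: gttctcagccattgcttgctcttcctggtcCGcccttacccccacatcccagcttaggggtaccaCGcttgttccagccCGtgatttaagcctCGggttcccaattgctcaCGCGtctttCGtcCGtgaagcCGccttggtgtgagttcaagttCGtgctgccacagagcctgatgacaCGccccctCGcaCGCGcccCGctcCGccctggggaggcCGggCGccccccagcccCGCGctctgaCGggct
Hapln2: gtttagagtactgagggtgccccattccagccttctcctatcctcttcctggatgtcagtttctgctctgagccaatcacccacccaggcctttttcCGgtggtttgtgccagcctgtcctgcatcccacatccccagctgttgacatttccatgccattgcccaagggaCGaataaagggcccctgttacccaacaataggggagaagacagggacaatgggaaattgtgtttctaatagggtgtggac
The Timp2 and Fbln5 windows each held 21 CGs, a number reached by 16.1% of 27025 RefSeq windows of this length. Those are 1 for each gene, before its annotated start farthest upstream. Col18a1 held 12, reached by 33.8%. Thbs2 held 3 and Hapln2 held 2, reached by 70.4% and 80.5%, and Col9a1 held none. A second annotated start of Fbln5 had 6 CGs before it and one of Col18a1 had 3. Windows were found for 73 of the 107 members. Their median was 10 CGs, against 6 over all windows, and 37.0% of them held 15 or more, against 27.5% of all. Among the 23 with a window that were called higher in either Eed cKO comparison the median was 15, with a range from 0 to 39. It was 2 (1 to 17) in the 5 members called lower in Eed cKO iOLs and 10 in the other 45. These counts describe the sequence. No binding data were analysed here.

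Depth was similar across libraries, with 17417529 to 19680398 counts each, and the matrix genes took 1.32% to 1.81% of the counts. Values below are CPM, counts scaled to the size of each library. CPM depends on transcript length, so levels are compared between libraries and never between genes. A gene was called where its adjusted p was under 0.05 by edgeR's quasi-likelihood test, adjusted over all genes, and ± gives the standard error of a log2 fold change. For Eed itself, control OPCs had 21.7 and 16.8 CPM and cKO OPCs 13.3, 11.8 and 12.5 CPM. At the later stage controls had 18 and 21.2 CPM and cKO libraries 14.6 and 12.1 CPM. Every cKO library lay below every control library of its stage, but neither difference passed edgeR's test (log2 fold changes of −0.62 ± 0.17 and −0.55 ± 0.18, adjusted p = 0.0847 and 0.0973). Summed OPC markers ran from 17700 to 21300 CPM in OPCs and from 6020 to 9480 CPM in iOLs. Summed oligodendrocyte markers were 6280 and 6300 CPM in control iOLs and 1610 and 2350 CPM in cKO iOLs, and 6 of the 10 markers fell there. Control OPC library 1 stood apart from the other OPC libraries, with 6760 CPM of these markers against 1130 to 2990 CPM, and without it 9 members were called higher in cKO OPCs in place of 14. In bulk RNA, fewer cells of a type and less RNA per cell cannot be told apart.

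Collagens, the largest class of members, were the most numerous of the matrix genes that rose in Eed cKO OPCs. Of the 107 members 14 rose (13.1%) and 0 fell, against 2.94% of all genes higher and 0.303% lower. Before adjustment, 39 members were higher and 5 lower at a p under 0.05, and DESeq2 called 26 higher and 1 lower, the inhibitor Timp4. The median log2 fold change was 0.26 over the members and −0.02 over all genes. By class, 7 of 37 collagens (18.9%) and 3 of 18 ADAMTS proteases (16.7%) rose. So did 1 of 4 thrombospondins, 1 of 3 testicans, 1 of 4 link proteins and 1 of 4 TIMPs. The share of collagens was thus close to that of ADAMTS proteases and below that of these small classes. In all 14 genes each cKO library lay above both control libraries, but the genes were called on these same values. The groups did not overlap, in either direction, in 52 of the 107 members. That share is not given over all genes here, so it cannot be read as particular to the matrix genes. With only the groups compared 7 of the 14 passed, the others being Adamts3, Adamts17, Thbs2, Col6a2, Spock1, Hapln3 and Timp2 (adjusted p = 0.0519 to 0.12), and with day 6 alone only Adamts18 and Col27a1 did.

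Of the fibrillar collagens, 3 of 11 rose in cKO OPCs. Col2a1, the main collagen of cartilage (chromosome 15, 97975602 to 98004724), measured 48.9 and 107 CPM in control OPCs and 658, 635 and 528 CPM in cKO OPCs. The lowest cKO library was far above the higher control, and the log2 fold change was 2.96 ± 0.38 (adjusted p = 0.00316). Between libraries of the same day the log2 difference was 3.72 at day 7 and 2.31 at day 6. Without control library 2, of day 6, the fold change rose to 3.63. Col27a1, a short fibrillar collagen also found in cartilage (chromosome 4, 63214009 to 63334991), measured 40.1 and 38.8 CPM in controls and 186, 194 and 155 CPM in cKO cells. The controls were nearly equal, and the log2 fold change of 2.18 ± 0.16 (adjusted p = 0.000143) held under each alternative that was run. Col11a1, which is built into the same cartilage fibrils, measured 112 and 124 CPM in controls and 295, 291 and 230 CPM in cKO cells, a log2 fold change of 1.2 ± 0.17 (adjusted p = 0.00571). The partner chain Col11a2 had 231 and 153 CPM against 439, 396 and 277 CPM and did not pass (0.95 ± 0.24, adjusted p = 0.071). The type I and III collagens Col1a1, Col1a2 and Col3a1, which fibroblasts make in bulk, did not pass, at log2 fold changes of 0.26, −0.49 and −0.58.

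**Figure D1:**
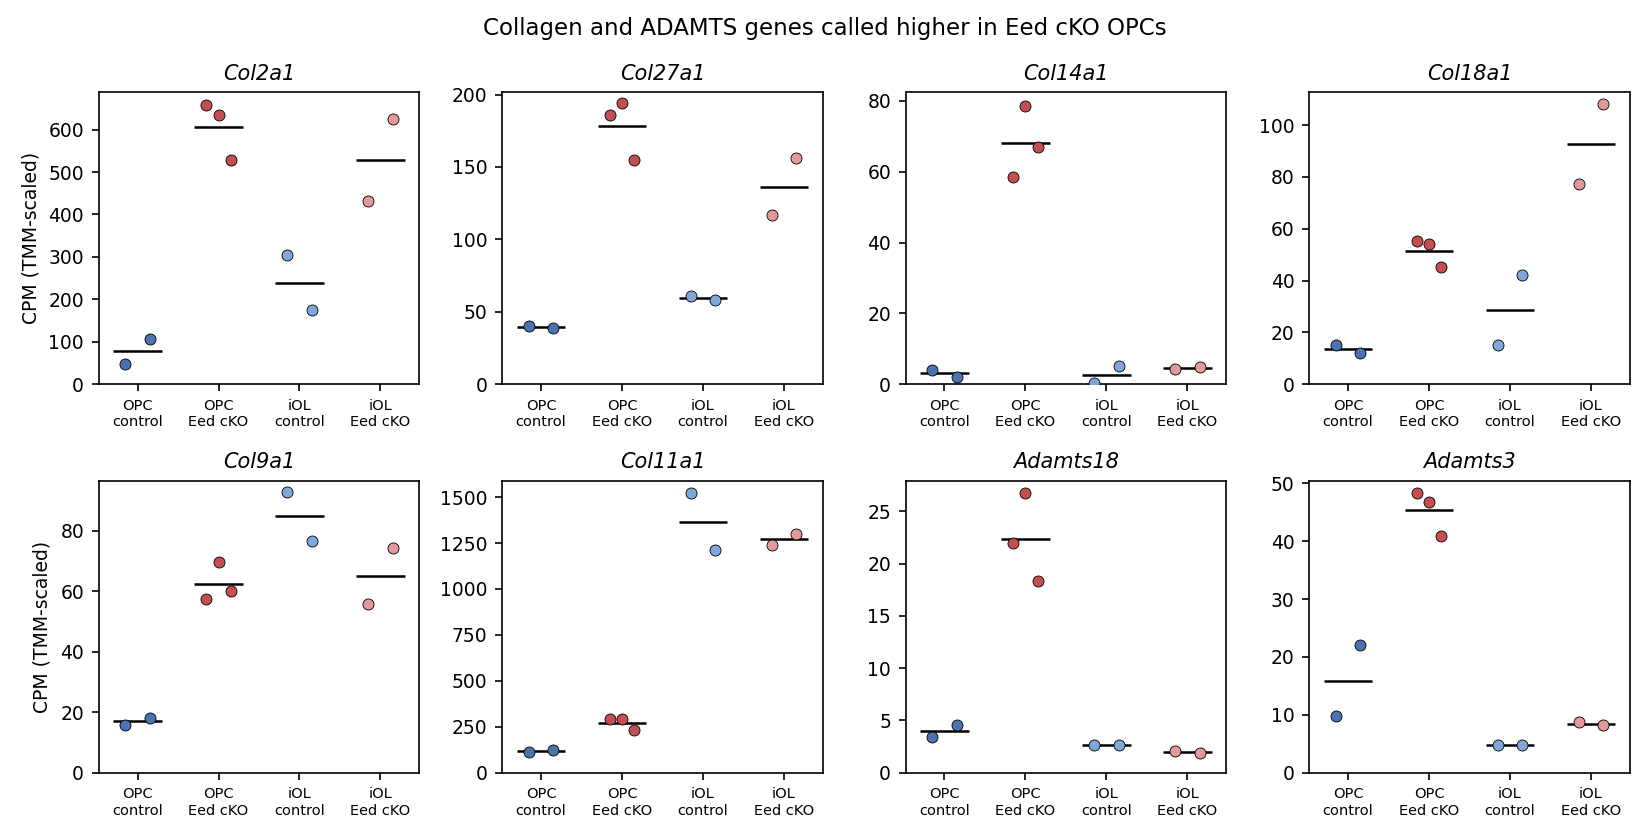
CPM of 6 collagen and 2 ADAMTS genes in each library of the 4 groups (points), with the group mean (bar). In the OPC columns every Eed cKO library lies above both controls, by the widest margin in Col2a1, Col14a1 and Adamts18. The iOL columns show that Col14a1, Col9a1, Col11a1 and Adamts18 had no such gap at the later stage.

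Fibril-associated collagens coat the fibrils, and 2 of 9 rose. Col14a1 (chromosome 15, 55307644 to 55520803) measured 4.04 and 2.11 CPM in control OPCs and 58.5, 78.6 and 66.9 CPM in cKO OPCs. Its log2 fold change of 4.47 ± 0.68, a 22.2-fold difference, was the highest among the members called (adjusted p = 0.00812), with 4.07 at day 7 and 4.99 at day 6. Col9a1, which is cross-linked to Col2a1 fibrils in cartilage (chromosome 1, 24177589 to 24252738), measured 15.9 and 18 CPM against 57.5, 69.6 and 60.1 CPM, a log2 fold change of 1.88 ± 0.17 (adjusted p = 0.00048). Of its sister chains, Col9a2 had 106 and 64.3 CPM against 184, 174 and 130 CPM (0.93 ± 0.23, adjusted p = 0.0665) and Col9a3 a fold change of 0.08 ± 0.19. The 3 chains assemble into 1 molecule, and 1 of them passed. With the day 6 libraries alone, 1 control against 1 cKO OPC library, Col14a1, Col2a1, Col9a1 and Col11a1 no longer passed (adjusted p = 0.137, 0.108, 0.0566 and 0.123), with log2 values of 4.99, 2.31, 1.74 and 0.89.

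Among basement membrane collagens, Col18a1, the source of endostatin (chromosome 10, 77052178 to 77166530), was the 1 of 8 that rose. It measured 15.3 and 12.2 CPM in control OPCs and 55.3, 54.3 and 45.2 CPM in cKO OPCs (1.91 ± 0.37, adjusted p = 0.0267). The call was lost without control library 1, cKO library 1 or cKO library 2, with adjusted p of 0.117, 0.0925 and 0.0851 and log2 values of 1.85 to 2.08. Col4a1 and Col4a2, the chains of all basement membranes, did not pass (0.58 ± 0.14 and 0.46 ± 0.13, adjusted p = 0.0627 and 0.0905). Their genes overlap at their ends, so without counting by strand their reads may mix. Of collagen VI, Col6a2 rose from 3.63 and 3.58 CPM to 10.1, 9.10 and 7.53 CPM (1.30 ± 0.24, adjusted p = 0.0218). Its call was lost without control library 1, cKO library 1 or cKO library 2 (adjusted p = 0.104, 0.0954 and 0.0829), and with only the groups compared (0.0519). With day 6 alone Col18a1 and Col6a2 did not pass either (adjusted p = 0.407 and 0.403).

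Laminins, tenascins, fibronectin and elastic fibre genes were not called in cKO OPCs. For the 9 laminins edgeR called 0, with 3 higher before adjustment and 1 by DESeq2, and the nearest was Lama4 (0.69 ± 0.16, adjusted p = 0.0534). Fibronectin (Fn1), the adhesive protein of early matrix, measured 9.78 and 23.7 CPM in controls and 13.8, 13.4 and 22.1 CPM in cKO cells, and the groups overlapped (−0.03 ± 0.42). For the 5 elastic fibre genes edgeR called 0, with 2 higher and 1 lower before adjustment and 1 higher by DESeq2, and the median log2 fold change was −0.01. Thbs2, a thrombospondin that binds cells and metalloproteinases, rose from 4.45 and 10.5 CPM to 19, 20.9 and 24.4 CPM (1.51 ± 0.31, adjusted p = 0.0307). That call is near the threshold, since leaving out any of the libraries except control library 2 and cKO library 3 ended it (adjusted p = 0.0528 to 0.0940). Without control library 2 the log2 value was 2.27.

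The lecticans, the chondroitin sulphate proteoglycans that give brain matrix its bulk, did not pass in cKO OPCs. Brevican (Bcan) measured 3550 and 3240 CPM in controls and 2930, 2600 and 2800 CPM in cKO cells (−0.29 ± 0.17, adjusted p = 0.288). Its groups did not overlap, though the difference was small. Neurocan (Ncan) measured 1590 and 3690 CPM against 1560, 1500 and 3170 CPM, so its high libraries were those of day 6 in both genotypes. Versican (Vcan) measured 511 and 824 CPM against 1010, 1030 and 869 CPM (0.54 ± 0.20, adjusted p = 0.152). Without control library 2 it passed, at 0.92 (adjusted p = 0.00485). For the 3 genes edgeR and DESeq2 called 0, and Vcan alone had a p under 0.05 before adjustment. Tnr, the tenascin that links lecticans into nets, measured 1080 and 1620 CPM against 2150, 2210 and 1780 CPM (0.60 ± 0.21, adjusted p = 0.134). It passed by DESeq2 (adjusted p = 0.033) and without control library 2 (0.92, adjusted p = 0.00755). Tnc followed the postnatal day, with 330, 354 and 334 CPM at day 7 and 1470 and 1340 CPM at day 6.

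Of the link proteins, which pin lecticans to hyaluronan, Hapln3 rose in cKO OPCs from 38.5 and 41.4 CPM to 60.9, 62.3 and 63.6 CPM. The libraries within each group were close and the change small (0.64 ± 0.12, adjusted p = 0.0208), and it was not called without control library 1, cKO library 1 or cKO library 2 (adjusted p = 0.0745 to 0.0918). Hapln4 (0.86 ± 0.23, adjusted p = 0.0845), Hapln1 (−0.01) and Hapln2 (−0.82) did not pass. The testican Spock1, a secreted proteoglycan, rose from 17.6 and 18 CPM to 33.9, 31.9 and 25.4 CPM (0.77 ± 0.15, adjusted p = 0.0288). Leaving out any library but control library 2 or cKO library 3 took it past the threshold (adjusted p = 0.0591 to 0.128).

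Among the ADAMTS and metalloproteinase genes 3 of 28 rose, all of them ADAMTS. Adamts18 (chromosome 8, 113697123 to 113849343) measured 3.46 and 4.58 CPM in control OPCs and 22, 26.7 and 18.3 CPM in cKO OPCs. The 5.53-fold difference (2.47 ± 0.23, adjusted p = 0.000469) held under each alternative that was run. Adamts3, which trims the ends of procollagen II, rose from 9.72 and 22 CPM to 48.3, 46.7 and 40.9 CPM (1.51 ± 0.28, adjusted p = 0.0218). At day 7 its log2 difference was 2.29 and at day 6 it was 0.90. Adamts17 rose from 8.55 and 13.5 CPM to 23.6, 26.3 and 24.2 CPM (1.16 ± 0.20, adjusted p = 0.015), and its log2 difference was 1.54 at day 7 and 0.84 at day 6. Without cKO library 1 or cKO library 2 neither of the pair passed (adjusted p = 0.0858 and 0.0783 for Adamts3, 0.0560 and 0.0652 for Adamts17). Without control library 2 the log2 value of Adamts3 was 2.22. For the 10 metalloproteinases edgeR and DESeq2 called 0, with 2 higher before adjustment.

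Of the inhibitors, Timp2 rose from 137 and 162 CPM to 228, 232 and 229 CPM (0.62 ± 0.12, adjusted p = 0.0273). The 3 cKO libraries were nearly equal, yet the call was lost without any library other than control library 2 and cKO library 3 (adjusted p = 0.0517 to 0.110). Timp4 measured 170 and 186 CPM in controls and 93.2, 96.8 and 131 CPM in cKO cells, and did not pass (−0.74 ± 0.17, adjusted p = 0.0553). Timp1 and Timp3 did not pass (−0.60 ± 0.30 and 0.07 ± 0.22). All 4 Timp genes overlap another gene, 3 of them lying within a synapsin gene, so reads of the overlapping gene may be counted with them unless strand was used.

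In Eed cKO iOLs collagens, proteases, fibronectin and 3 of the 5 elastic fibre genes were among the members that rose. Of the 107 members 26 rose (24.3%) and 5 fell (4.67%), against 7.08% of all genes higher and 3.51% lower. The share that fell was close to that of all genes. The median log2 fold change was 0.51 over the members and 0.00 over all genes. By class, 7 of 37 collagens, 3 of 5 elastic fibre genes, 6 of 28 ADAMTS and metalloproteinase genes, 2 of 3 ADAMTS-like genes, 2 of 4 TIMPs, fibronectin, and 1 each of the laminins, thrombospondins, matrilins, link proteins and testicans rose. The genes that fell were Col20a1, Col5a3, Hapln2, Tnr and Matn1.

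Of the elastic fibre genes, Fbln5, Eln and Fbln1 rose in cKO iOLs. Fbln5, a fibulin needed to assemble elastic fibres (chromosome 12, 101746565 to 101819119), measured 94.1 and 94.5 CPM in control iOLs and 302 and 435 CPM in cKO iOLs. Its log2 fold change was 1.97 ± 0.19 (adjusted p = 0.000638). Elastin (Eln, chromosome 5, 134702595 to 134747368), the rubber-like core of the fibre, measured 16.3 and 15.8 CPM against 44.0 and 50.8 CPM (1.56 ± 0.13, adjusted p = 0.000441). Fbln1, a fibulin that binds fibronectin and elastic fibres, measured 4.03 and 3.05 CPM against 13.2 and 10.5 CPM (1.75 ± 0.26, adjusted p = 0.00402). All 3 calls were kept whichever library was left out. Fbln2 (0.54 ± 0.38) and Fbln7 (0.21 ± 0.20) did not pass. Fn1 (chromosome 1, 71585473 to 71653280) measured 92.2 and 181 CPM in control iOLs and 555 and 833 CPM in cKO iOLs, a 5.08-fold difference (2.35 ± 0.45, adjusted p = 0.0115). Both cKO libraries lay above both controls, which themselves lay apart. Without control iOL library 1 or cKO iOL library 2 the adjusted p was 0.102 and 0.0706.

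**Figure D2:**
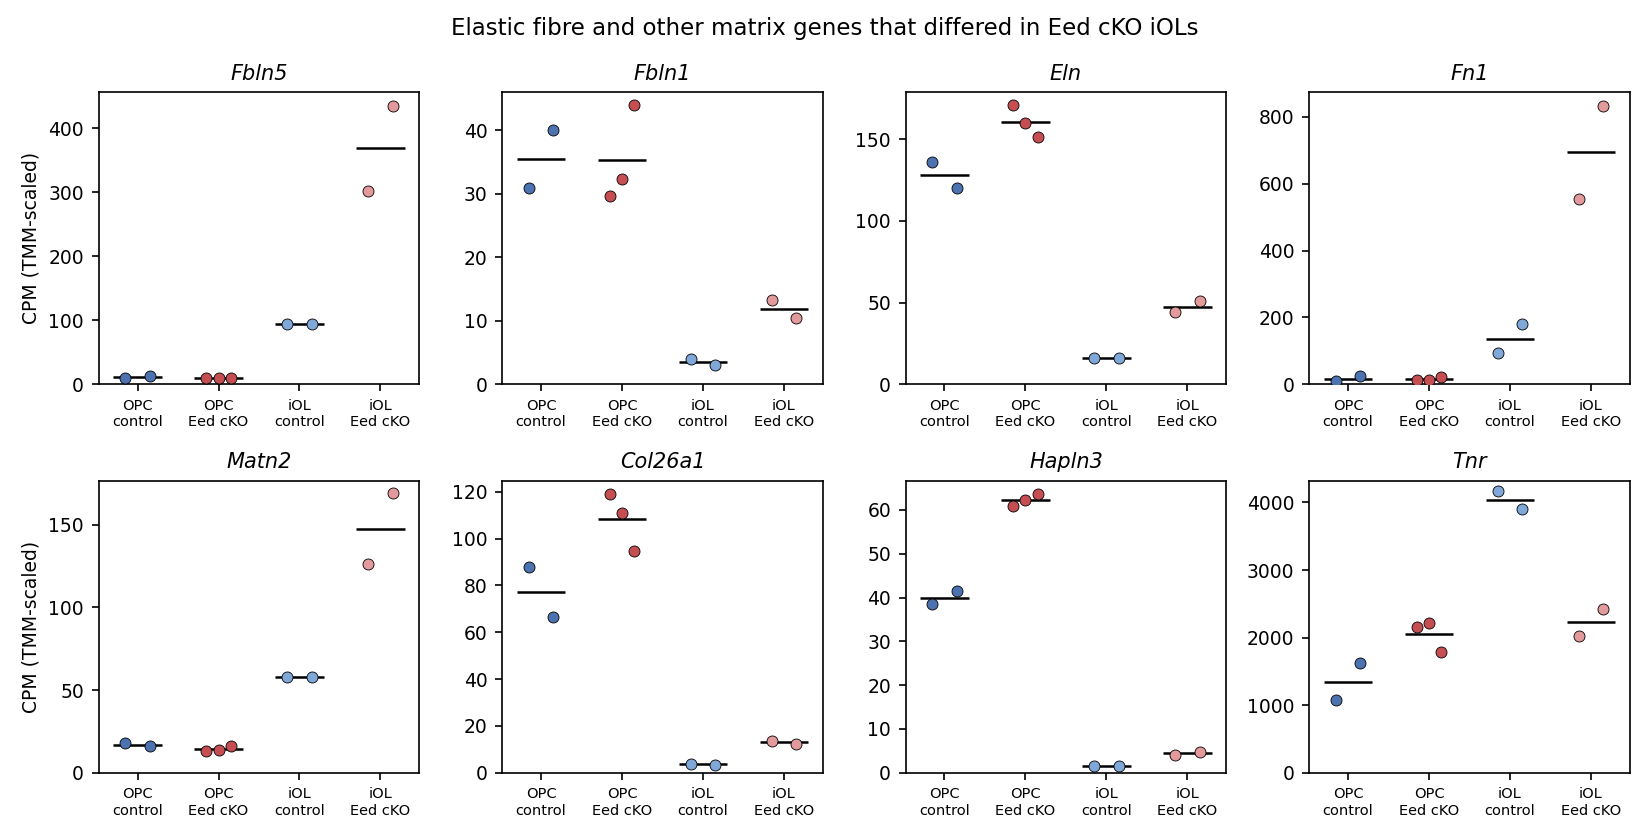
CPM of 8 matrix genes in each library of the 4 groups (points), with the group mean (bar). Fbln5, Fn1 and Matn2 are higher in iOLs than in OPCs and highest in Eed cKO iOLs, Eln, Fbln1, Col26a1 and Hapln3 are lower in iOLs than in OPCs yet higher in cKO than in control iOLs, and Tnr is lower in cKO than in control iOLs.

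The 7 collagens that rose in cKO iOLs were Col18a1, Col27a1, Col6a2, Col5a1, Col9a3, Col25a1 and Col26a1. Col26a1 measured 3.92 and 3.39 CPM in control iOLs and 13.7 and 12.4 CPM in cKO iOLs (1.83 ± 0.20, adjusted p = 0.00105). Col27a1 measured 60.6 and 57.9 CPM against 117 and 156 CPM (1.2 ± 0.16, adjusted p = 0.00223), and both calls held without any library. Col18a1 measured 15.3 and 42.0 CPM in controls and 77.1 and 108 CPM in cKO cells (1.69 ± 0.38, adjusted p = 0.0225). Its controls differed 2.74-fold. Without control iOL library 1 the adjusted p was 0.0638, without control iOL library 2 the log2 value was 2.6, and without cKO iOL library 1 or 2 the adjusted p was 0.0619 and 0.138. Col25a1, a transmembrane collagen of neurons, rested on 9 counts in controls and 47 in cKO cells, a ratio of 4.93 with an exact 95% counting interval of 2.39 to 11.5. Its fitted value was 2.27 ± 0.53 (adjusted p = 0.0255), with 1.66 without control iOL library 1 and 3.38 without control iOL library 2. Without control iOL library 1 and without either cKO iOL library it did not pass (adjusted p = 0.0705 to 0.183). Col6a2, at 3.46 and 4 CPM against 6.65 and 10.2 CPM (1.17 ± 0.26, adjusted p = 0.0212), and Col5a1, at 14.6 and 28.5 CPM against 42.5 and 49.9 CPM (1.10 ± 0.25, adjusted p = 0.0243), were lost without 3 of the 4 iOL libraries in turn. For Col6a2 these were both controls and cKO iOL library 2 (adjusted p = 0.0924 to 0.170), and for Col5a1 control library 1 and both cKO libraries (adjusted p = 0.0858 to 0.144). Col2a1, the strongest cartilage gene in OPCs, had 304 and 175 CPM against 432 and 625 CPM and did not pass in iOLs (2.21-fold, adjusted p = 0.0856). Col14a1 did not pass there either, and its groups overlapped. It had 0.341 and 5.11 CPM in control iOLs and 4.2 and 4.86 CPM in cKO iOLs (0.73 ± 0.71, adjusted p = 0.641).

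Of the other matrix glycoproteins, Matn2, an adaptor protein of matrix fibres, measured 58.0 and 57.9 CPM in control iOLs and 126 and 169 CPM in cKO iOLs (1.35 ± 0.16, adjusted p = 0.00149). Thbs2 rose from 9.37 and 9.44 CPM to 32.6 and 26.8 CPM (1.66 ± 0.32, adjusted p = 0.0122), and the call was lost without either control library or cKO iOL library 1 (adjusted p = 0.0842 to 0.0999). Lama4, the laminin chain of vessel walls, rose from 19.6 and 21.7 CPM to 37.5 and 48.6 CPM (1.06 ± 0.17, adjusted p = 0.00593). It did not pass without control iOL library 1 or cKO iOL library 2 (adjusted p = 0.0719 and 0.0535). The other 8 laminins did not pass. Spock2 rose by a small step (0.47 ± 0.12, adjusted p = 0.0395).

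Among proteases, those that rose in cKO iOLs were Adamts15, Adamts20, Adamts9, Adamts1, Mmp17 and Mmp24. The fitted value was above 0 in 25 of the 28 genes, against 76 of the 107 members and 6707 of all 13549 genes. Before adjustment 12 of the 28 were higher and 1 lower at a p under 0.05. Adamts20 measured 7.38 and 8.11 CPM in controls and 20.8 and 27.5 CPM in cKO cells (1.64 ± 0.23, adjusted p = 0.00267). Adamts9, a protease that cuts versican, measured 34.1 and 31.6 CPM against 79.8 and 90.8 CPM (1.38 ± 0.17, adjusted p = 0.00178), and both calls held without any library. Adamts15, which also cuts lecticans, rose from 2.50 and 2.61 CPM to 8.14 and 11.8 CPM (1.97 ± 0.46, adjusted p = 0.0268). Adamts1, another versican-cutting enzyme, rose from 48.0 and 55.2 CPM to 110 and 114 CPM (1.11 ± 0.24, adjusted p = 0.0185). Leaving out any iOL library ended the calls of Adamts15 (adjusted p = 0.0747 to 0.173) and Adamts1 (0.0828 to 0.156). None of the 18 ADAMTS genes was called lower by edgeR, 1 was before adjustment and by DESeq2, and Adamts4 had −1.32 ± 0.39 (adjusted p = 0.0648). The membrane-anchored Mmp17 (0.63 ± 0.15) and Mmp24 (0.61 ± 0.11) moved little.

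The secreted ADAMTS-like genes, which resemble ADAMTS proteins but lack the protease domain, included Adamtsl1, from 5.51 and 6.22 CPM to 18.6 and 26.7 CPM (1.95 ± 0.24, adjusted p = 0.00165), and Adamtsl3 (0.94 ± 0.16, adjusted p = 0.0071). Timp2 rose from 181 and 207 CPM to 301 and 339 CPM (0.72 ± 0.13, adjusted p = 0.0093), but not without control iOL library 1 or cKO iOL library 2 (adjusted p = 0.116 and 0.0805). Timp1, an inhibitor induced in many injuries, had 5.96 and 6.38 CPM against 11.8 and 12.2 CPM, at the threshold itself (0.96 ± 0.27, adjusted p = 0.0499). RLE scaling gave an adjusted p of 0.0536, and leaving out cKO OPC library 1 or 2 gave 0.0786 and 0.0773. Leaving out an iOL library gave 0.191 to 0.271. Timp3 (0.40 ± 0.24) and Timp4 (−0.69 ± 0.20, adjusted p = 0.0564) did not pass.

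No lectican passed in iOLs. Bcan measured 517 and 434 CPM in control iOLs and 421 and 334 CPM in cKO iOLs (−0.33 ± 0.18, adjusted p = 0.34). Ncan measured 2140 and 1710 CPM against 1890 and 1570 CPM (−0.15 ± 0.44), and Vcan 633 and 546 CPM against 684 and 652 CPM (0.18 ± 0.22). edgeR and DESeq2 called 0 of the 3, and 0 had a p under 0.05 before adjustment. A p that misses the threshold does not show equal levels. Of the tenascins and link proteins 3 of 6 passed. Tnr (chromosome 1, 159523729 to 159931729) measured 4170 and 3910 CPM in control iOLs and 2030 and 2420 CPM in cKO iOLs, and it fell (−0.86 ± 0.23, adjusted p = 0.0407). Hapln2, the link protein of nodes of Ranvier, measured 2.90 and 3.22 CPM against 0.426 and 0.423 CPM. That is 16 counts in cKO iOLs and 109 in controls, a ratio of 0.139 (exact 95% counting interval 0.0766 to 0.235), with a fitted value of −2.83 ± 0.70 (adjusted p = 0.0321). Hapln3 rose from 1.48 and 1.55 CPM to 4.04 and 4.81 CPM (1.54 ± 0.17, adjusted p = 0.00119), and the call held without any library. Hapln1 (0.85 ± 0.79), Hapln4 (0.42 ± 0.25) and Tnc (−0.28 ± 0.74) did not pass.

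The other genes that fell in cKO iOLs were Col20a1, from 432 and 391 CPM to 119 and 183 CPM (−1.44 ± 0.28, adjusted p = 0.0119), Col5a3, from 51.3 and 59.6 CPM to 31.2 and 37.5 CPM (−0.69 ± 0.17, adjusted p = 0.0285), and Matn1. Matn1, a cartilage matrilin, had 35 counts in cKO iOLs and 135 in controls, a ratio of 0.245 (exact 95% counting interval 0.164 to 0.357). Its fitted value was −2.02 ± 0.50 (adjusted p = 0.0315) and reached −2.97 without cKO iOL library 2. None of the 5 calls was kept in every leave-one-out fit. The adjusted p rose to 0.0528 to 0.114 for Col20a1 without either control library or cKO iOL library 1, and to 0.0752 to 0.273 for Col5a3, Hapln2 and Tnr without any 1 iOL library. For Matn1 it rose to 0.0529 to 0.202 without cKO OPC library 2, either control iOL library or cKO iOL library 1. Tnr also lost its call without cKO OPC library 1 or 2 (adjusted p = 0.077 and 0.0719).

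Some markers of other cells moved with these groups. Over all genes 2.94% were called higher in cKO OPCs and 7.08% in cKO iOLs. The summed fibroblast and meningeal markers (8 of 13 measured) were 16.7 and 43.7 CPM in control OPCs, 52.8 to 63.7 CPM in cKO OPCs, 6.36 and 10.9 CPM in control iOLs and 32.6 and 53.1 CPM in cKO iOLs. The 5 that rose at both stages were the transcription factor genes Foxc1, Foxd1 and Tbx18 with Igf2 and Aldh1a2, and decorin (Dcn), a defining fibroblast gene, had 0.114 and 0.222 CPM in control iOLs and 1.38 and 1.27 CPM in cKO iOLs (2.93 ± 0.83, adjusted p = 0.0542). In OPCs Dcn lay between 0.271 and 1.39 CPM, and the groups overlapped. Pdgfrb and Gjb2, also on this list, were called at neither stage. Pdgfrb had −0.45 ± 0.61 in OPCs (adjusted p = 0.654) and 0.79 ± 0.72 in iOLs (adjusted p = 0.612). Only 2 of 10 endothelial markers were measured, the receptor genes Flt1 and Kdr. Both rose at both stages, from a sum of 40.4 and 35.3 CPM to 87.5 and 103 CPM in iOLs. Of 7 pericyte and smooth muscle markers 0 were called in cKO OPCs, and 1 rose and 0 fell in cKO iOLs. Their sum was 365 and 488 CPM in control iOLs and 284 and 454 CPM in cKO iOLs. Astrocyte markers summed to 6910 and 7050 CPM in control iOLs and 9780 and 11800 CPM in cKO iOLs, and 1 of 11 rose and 1 fell. In cKO OPCs 0 of the 11 rose and Agt fell. Of 11 neuron markers Gad2 rose at both stages and Tubb3 in iOLs, and 0 fell. Their sum was 1100 and 1150 CPM in control OPCs and 1820, 1880 and 1320 CPM in cKO OPCs. In iOLs it was 1370 and 1320 CPM against 1300 and 1280 CPM. Of 9 Schwann and neural crest markers 1 rose in OPCs, and in iOLs 2 rose and 1 fell. The part of these markers, and of the lower oligodendrocyte markers, in the collagen, elastic fibre, fibronectin, Tnr and Hapln2 results was not tested.

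The members called at the 2 stages overlapped in part. Called higher at both were 6 genes, Col18a1, Col27a1, Col6a2, Thbs2, Hapln3 and Timp2. Called higher in OPCs alone were 8 and in iOLs alone 20, and 68 members passed in neither direction at either stage. These counts are not given over all genes here, so the overlap cannot be called larger or smaller than that of genes in general. The fitted values of the 2 stages had the same sign in 66 members (61.7%), against 57.2% over all genes. Most members were above 0, 69 in OPCs and 76 in iOLs, which raises that share. The correlation of the 2 values was lower over the members than over all genes, at 0.212 against 0.454 (Pearson) and 0.213 against 0.235 (Spearman). Whether an effect differed by stage was tested as the difference of differences, iOL minus OPC, which was called higher in 5 members (4.67%) and lower in 3 (2.80%), against 0.945% and 0.886% of all genes. The 5 were Fbln5 (2.21 ± 0.26), Fbln1 (1.75 ± 0.33), Matn2 (1.6 ± 0.22), Col26a1 (1.34 ± 0.25) and Eln (1.23 ± 0.17), so 3 were elastic fibre genes. The 3 were Adamts18 (−2.87 ± 0.34), Col9a1 (−2.26 ± 0.24) and Col11a1 (−1.30 ± 0.25). Adamts18 had 2.61 and 2.66 CPM in control iOLs and 2.08 and 1.90 CPM in cKO iOLs, and Col9a1 had 92.7 and 76.6 CPM against 55.6 and 74.3 CPM, so the excess seen in cKO OPCs was not seen in iOLs. Each of these 8 calls was lost in at least 1 fit with a library left out, that of Col9a1 only without control iOL library 1 (adjusted p = 0.0576), that of Fbln5 only without either control iOL library (0.0626 and 0.071) and that of Adamts18 without any 1 iOL library (0.0527 to 0.071). For Col14a1 (−3.75 ± 0.96, adjusted p = 0.0872), Col2a1 (−1.82 ± 0.50, adjusted p = 0.104), Fn1 (2.38 ± 0.60, adjusted p = 0.0836) and Tnr (−1.46 ± 0.31, adjusted p = 0.0503) the difference did not pass.

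**Figure D3:**
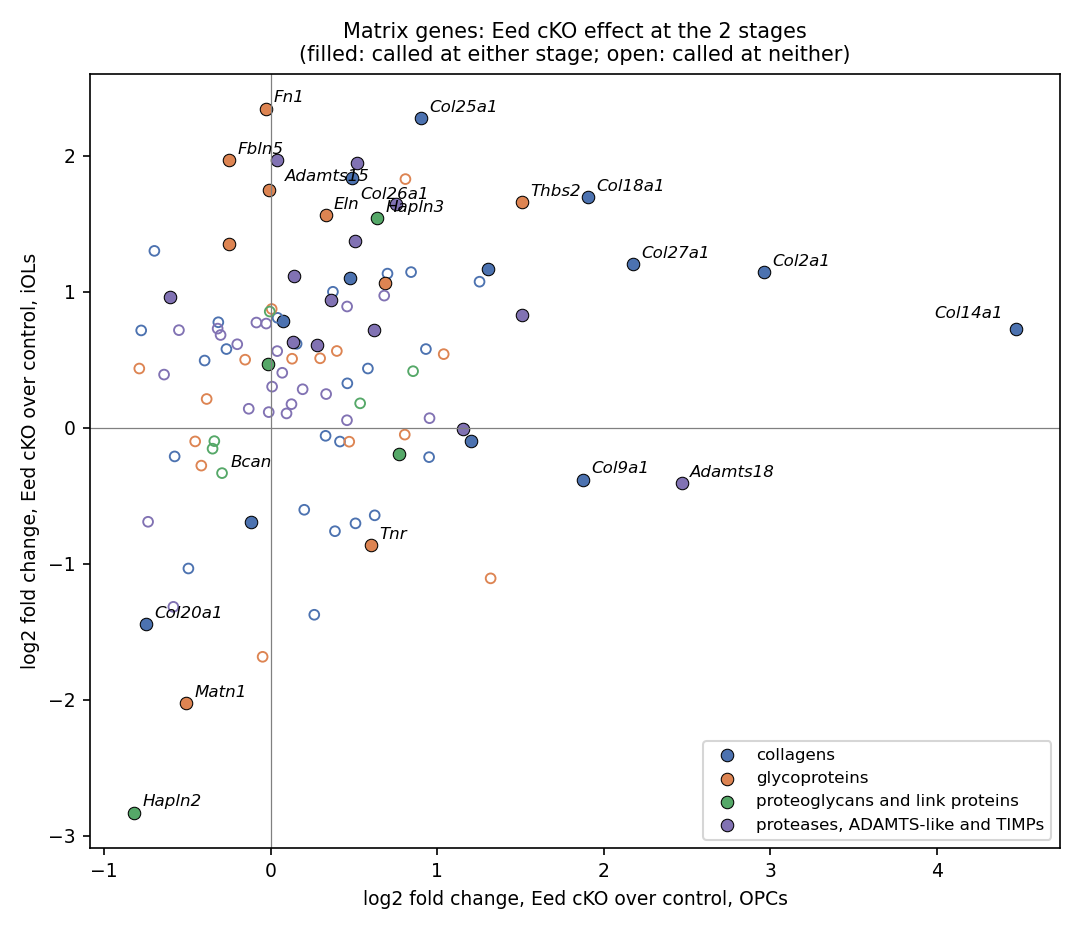
Each point is a matrix gene, with its log2 fold change of Eed cKO over control in OPCs on the x axis and in iOLs on the y axis, colored by class, filled where called at either stage. Col27a1, Col18a1, Thbs2 and Hapln3 lie in the upper right, Col14a1, Col2a1 and Adamts18 far to the right, Fn1, Fbln5 and Eln high near 0 on the x axis, and Hapln2, Matn1, Col20a1 and Tnr at the bottom.

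From OPC to iOL the matrix genes of control cells went both ways, with proteases mostly down. Of the 107 members 27 rose (25.2%) and 41 fell (38.3%), against 21% of all genes higher and 25.3% lower. In cKO cells 26 rose (24.3%) and 39 fell (36.4%), against 18.5% and 21.8%. In both genotypes 18 rose and 30 fell, and the matching counts over all genes are not given here. All iOL libraries are of day 6, while OPC libraries are of days 6 and 7. Values with day 6 alone rest on 1 OPC library a genotype and are given where they change a call, and for a few other genes. Markers of other cells moved with the stage too. Hemoglobin (Hbb-b1) lay between 562 and 2880 CPM in OPC libraries and between 0.213 and 1.17 CPM in iOLs. In controls 4 of 8 fibroblast and meningeal markers fell and 1 rose. Of 7 pericyte and smooth muscle markers 3 fell and 2 rose in controls, and 0 fell and 2 rose in cKO cells. The sum of these 7 was 73.9 and 260 CPM in control OPCs and 365 and 488 CPM in control iOLs. The astrocyte gene Gfap rose in controls (2.38 ± 0.53), and 5 of 11 astrocyte markers fell. Their part in the differentiation results was not tested.

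Collagens moved in both directions with differentiation. In controls 15 of 37 collagens rose and 9 fell, and in cKO cells 10 rose and 11 fell. Col20a1, a collagen with few known roles, went from 8.20 and 6.53 CPM in control OPCs to 432 and 391 CPM in control iOLs, a 55.9-fold difference (5.80 ± 0.35, day 6 alone 5.98). In cKO cells it went from 5.70, 4.85 and 2.63 CPM to 119 and 183 CPM (5.11 ± 0.29, day 6 alone 5.85). Col11a1 went from 112 and 124 CPM to 1520 and 1210 CPM in controls (3.53 ± 0.20) and from 295, 291 and 230 CPM to 1240 and 1300 CPM in cKO cells (2.23 ± 0.16). The iOL libraries of the 2 genotypes overlapped in it. In controls Col8a2, Col4a3, Col6a1, Col16a1 and Col9a1 also rose, by 2.32 to 3.39, while Col9a1 had a value of 0.06 ± 0.16 in cKO cells. Those that fell farthest in controls were Col26a1 (−4.40 ± 0.20), Col24a1 (−3.74 ± 0.38), Col15a1 (−2.77 ± 0.44) and Col25a1 (−2.71 ± 0.52). The value of Col15a1 was −3.89 without control iOL library 2 and −2.16 without library 1, and that of Col8a2 was 4.44 without control OPC library 2. In cKO cells they were Col14a1 (−3.90 ± 0.64), Col19a1 (−3.84 ± 0.33), Col26a1 (−3.05 ± 0.18) and Col6a3 (−2.55 ± 0.56). Col4a6 rose by 3.05 ± 0.58 in cKO cells, by 3.90 without cKO OPC library 3 and by 2.14 with day 6 alone. Col6a3 had −1.92 without cKO iOL library 1 (adjusted p = 0.0584).

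Fibronectin and Fbln5 rose steeply in both genotypes. Fn1 rose 8.13-fold in controls (3.02 ± 0.47, day 6 alone 2.54, without control OPC library 2 3.80) and 42.2-fold in cKO cells (5.4 ± 0.44, day 6 alone 4.98). Fbln5 rose from 10 and 13.3 CPM to 94.1 and 94.5 CPM in controls (3.01 ± 0.20), and from 10.1, 10.2 and 9.13 CPM to 302 and 435 CPM in cKO cells (5.23 ± 0.18). Of the other elastic fibre genes 3 fell in both genotypes. Eln fell from 136 and 120 CPM to 16.3 and 15.8 CPM in controls (−3.0 ± 0.13) and from 171, 160 and 151 CPM to 44.0 and 50.8 CPM in cKO cells (−1.76 ± 0.12). Fbln1 (−3.32 ± 0.27 and −1.57 ± 0.23) and Fbln7 (−2.36 ± 0.19 and −1.77 ± 0.18) also fell in both, and Fbln2 passed in neither (−0.06 ± 0.38 and −0.56 ± 0.34). With day 6 alone Fbln2 was called lower in both (−0.514 and −1.05, adjusted p = 0.0237 and 0.00162). Matn2 rose by 1.76 ± 0.17 in controls and by 3.36 ± 0.15 in cKO cells. Thbs1 rose by 2.94 ± 0.47 in controls, from 1.90 without control iOL library 2 to 3.53 without control iOL library 1, and by 2.08 ± 0.39 in cKO cells. Thbs4 fell by 4.96 ± 0.45 in controls and by 3.94 ± 0.35 in cKO cells. In controls it rested on 7 counts in iOLs and 227 in OPCs, a ratio of 0.0312 (exact 95% counting interval 0.0124 to 0.0654), and without control iOL library 1 the value was −6.67.

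**Figure D4:**
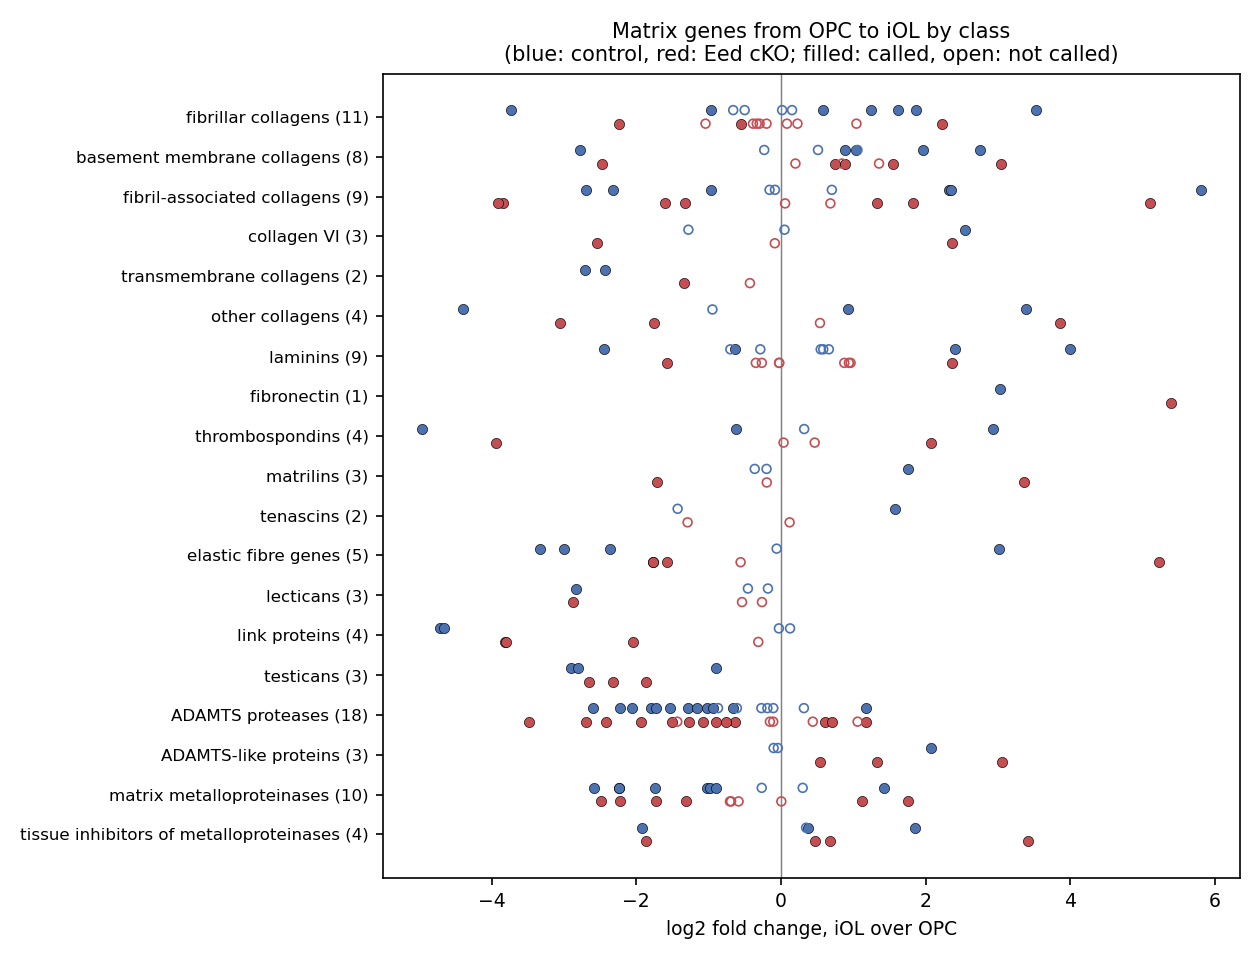
Log2 fold change of iOL over OPC (x axis) for each matrix gene by class (rows, with the number of members), in control cells (blue) and Eed cKO cells (red), filled where called. Testicans lie below 0 throughout, ADAMTS proteases and metalloproteinases lie mostly below 0, and collagens and laminins lie on both sides.

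Of brain matrix genes, Bcan (chromosome 3, 87987531 to 88002175) fell from 3550 and 3240 CPM to 517 and 434 CPM in controls (−2.84 ± 0.20) and from 2930, 2600 and 2800 CPM to 421 and 334 CPM in cKO cells (−2.88 ± 0.19). The fold changes of the 2 genotypes were within their errors of each other. Ncan (−0.46 ± 0.44 and −0.26 ± 0.40), Vcan (−0.18 ± 0.22 and −0.54 ± 0.20) and Tnc (−1.43 and −1.29) did not pass over all libraries. With day 6 alone all 3 were called lower in both genotypes. Ncan had −0.933 and −0.866 (adjusted p = 0.00351 and 0.00637), Vcan −0.477 and −0.373 (0.0107 and 0.0314), and Tnc −2.13 and −2.27 (6.38e-05 and 8.37e-05). A day term called Ncan and Tnc in both genotypes and Vcan in cKO cells. Hapln3 (−4.71 ± 0.17 and −3.81 ± 0.14) and Hapln1 (−4.66 ± 0.70 and −3.80 ± 0.62) fell in both, and Hapln1 had −3.86 in controls without control OPC library 2. Hapln2 did not pass in controls (−0.03 ± 0.57) and fell in cKO cells (−2.04 ± 0.68, adjusted p = 0.039), a call lost with a day term, with day 6 alone (−0.85, adjusted p = 0.16) and without cKO OPC library 1 or 2 or any 1 iOL library (adjusted p = 0.0553 to 0.164). In controls its value turned to 1.06 with day 6 alone (adjusted p = 0.0324), since control OPC library 1, of day 7, had 4.80 CPM and library 2 had 1.47 CPM. Tnr rose 3.0-fold in controls (1.58 ± 0.23) and had 0.12 ± 0.21 in cKO cells. Testicans fell in both genotypes, with −2.81 ± 0.13 and −2.32 ± 0.12 for Spock2 and −2.90 ± 0.30 and −2.66 ± 0.29 for Spock3.

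ADAMTS and metalloproteinase genes fell in 18 of 28 cases in controls and rose in 2, with a median log2 value of −1.0, against −0.06 over all genes. In cKO cells 14 fell and 5 rose, with a median of −0.73. The 2 that rose in controls were Adamts4, an aggrecan and brevican cutting enzyme (1.17 ± 0.39), and Mmp24 (1.42 ± 0.12), both overlapping another gene. Mmp15 fell from 1080 and 1130 CPM to 241 and 229 CPM in controls (−2.23 ± 0.14) and from 1230, 1190 and 1130 CPM to 244 and 262 CPM in cKO cells (−2.22 ± 0.14). Mmp2, the gelatinase A gene, fell by 2.58 ± 0.14 in controls and by 2.49 ± 0.13 in cKO cells. In cKO cells Adamts18 fell by 3.48 ± 0.24 and Adamts19 by 2.69 ± 0.63, which was lost without cKO iOL library 2 (adjusted p = 0.0803). Adamtsl4 rose by 3.06 ± 0.38 in cKO cells. Of the TIMPs, Timp1 rose (1.85 ± 0.30 and 3.42 ± 0.27), Timp2 rose slightly (0.38 ± 0.13 and 0.48 ± 0.12), Timp3 passed in cKO cells (0.68 ± 0.22) and not in controls (0.35 ± 0.24), and Timp4 fell (−1.92 ± 0.20 and −1.87 ± 0.19). The call of Timp2 in controls was lost with a day term, day 6 alone, only the groups compared, and without control OPC library 1, cKO OPC library 1 or 2 or any 1 iOL library (adjusted p = 0.0515 to 0.252), and in cKO cells without cKO iOL library 2 (0.113). That of Timp3 in cKO cells was lost with a day term and without cKO OPC library 1 or 2 or any 1 iOL library (0.0516 to 0.184). Timp3 passed in controls without control OPC library 2 (0.835, adjusted p = 0.00196). Among laminins Lama3, at 8 counts in control OPCs and 43 in control iOLs (ratio 5.44, exact 95% counting interval 2.53 to 13.4), rose by 2.40 ± 0.50.

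Other genes of the matrix were read from lists of their roles. Of 21 collagen processing genes measured, 1 rose in cKO OPCs and 6 in cKO iOLs, against 2.94% and 7.08% of all genes, which are the shares to read the other lists against too. Of the 21, 0 fell at either stage by edgeR or DESeq2, with 0 and 1 lower before adjustment. Loxl2, a collagen and elastin cross-linking oxidase, rose at both stages, from 1.99 and 2.21 CPM to 6.78, 8.02 and 8.21 CPM in OPCs (1.86 ± 0.25, adjusted p = 0.0037) and by 0.94 ± 0.24 in iOLs (adjusted p = 0.0377). Loxl1, which cross-links elastin, rose in iOLs from 3.98 and 5.55 CPM to 15.6 and 17.6 CPM (1.80 ± 0.43, adjusted p = 0.0289), and P3h2, a collagen prolyl hydroxylase, by 1.43 ± 0.24 (adjusted p = 0.00633). Of 12 other elastic fibre genes, Emilin1 rose in OPCs (0.91 ± 0.18) and iOLs (0.98 ± 0.22), Efemp1 rose in iOLs (1.47 ± 0.30), Efemp2 fell in OPCs (−0.56 ± 0.12) and Fbn2 fell in iOLs (−0.89 ± 0.17). Of 9 other basement membrane genes Nid2 (1.72 ± 0.35), Ntn4 (1.11 ± 0.14) and Ntn1 (0.92 ± 0.14) rose in iOLs. In OPCs edgeR called 0 of the 9, with 3 higher before adjustment and 2 by DESeq2.

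Of 24 matrix receptor genes 2 rose in OPCs and 3 in iOLs, against 2.94% and 7.08% of all genes. Itga1, an integrin chain for collagens and laminins, rose from 2.46 and 3.32 CPM to 5.59, 8.13 and 5.52 CPM in OPCs (2.21-fold, adjusted p = 0.0328) and from 30.1 and 27.7 CPM to 104 and 132 CPM in iOLs (2.03 ± 0.21, adjusted p = 0.000929). Itga9, an integrin chain for tenascins, rose at both stages (0.84 ± 0.17 and 1.09 ± 0.19), and Itga8, which pairs to bind fibronectin, rose in iOLs (1.82 ± 0.27). Of 12 matricellular genes 2 rose in OPCs and 4 in iOLs, against the same 2.94% and 7.08%. Smoc2, a calcium-binding matricellular protein, went from 38 counts over the control OPC libraries to 2924 over the cKO OPC libraries, a ratio of 49.2 (exact 95% counting interval 35.8 to 69.7), and from 14 to 235 in iOLs (15.9, 9.26 to 29.5). Nov, of the CCN family, went from 9 to 687 counts in iOLs (72.1, 37.8 to 158), and Wisp1, of the same family, from 5 to 93 in OPCs (11.9, 4.92 to 37.5). Of 9 hyaluronan genes Tmem2, a cell-surface hyaluronidase, rose at both stages (1.56 ± 0.13 and 0.77 ± 0.13), and the synthase Has2 rose in iOLs from 7.04 and 7.61 CPM to 20.5 and 28.1 CPM (1.73 ± 0.25, adjusted p = 0.00361).

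The remaining lists held fewer calls. Of 20 other proteases and inhibitors Adam12 rose at both stages (1.03 ± 0.13 and 0.90 ± 0.15), Adam23 rose in OPCs (0.78 ± 0.14), and Adam19 (0.60 ± 0.13) and Furin (0.70 ± 0.15) rose in iOLs. Of 4 small leucine-rich proteoglycans Prelp rose in iOLs (2.31 ± 0.60, adjusted p = 0.0396), and in OPCs edgeR and DESeq2 called 0, with 0 before adjustment. Of 4 other chondroitin sulphate proteoglycans Cspg5 rose in iOLs from 238 and 237 CPM to 448 and 463 CPM (0.94 ± 0.16, adjusted p = 0.00708) and Cspg4 by 0.73 ± 0.20 (adjusted p = 0.0452). In OPCs edgeR called 0 of the 4, and 1 was lower before adjustment and by DESeq2. Cspg4, which encodes the OPC marker NG2, fell with differentiation in controls, from 1320 and 1390 CPM to 74.1 and 91.0 CPM.

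The postnatal day of the brain was a second axis in the OPC matrix genes. Between the day 6 and day 7 OPC libraries, 12 members lay higher at day 6 with no overlap and over a 2-fold difference (11.2%) and 1 lay lower (0.935%), against 2.83% and 1.22% of all genes. These are descriptions of 2 libraries against 3, with no test. The 12 were Tnc (4.14-fold), Col4a6 (3.70), Col4a5 (3.51), Col23a1 (3.19), Lamb2 (3.17), Adamts12 (2.86), Lama2 (2.73), Col5a2 (2.53), Hapln1 (2.43), Col12a1 (2.34), Mmp14 (2.33) and Ncan (2.21), and Hapln2 was 2.73-fold lower. Astrocyte markers summed to 3380 to 3900 CPM in the day 7 libraries and to 8300 and 10400 CPM in the day 6 libraries, and pericyte markers to 73.9 to 85 CPM and to 186 and 260 CPM. Their part in the day difference was not tested.

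**Figure D5:**
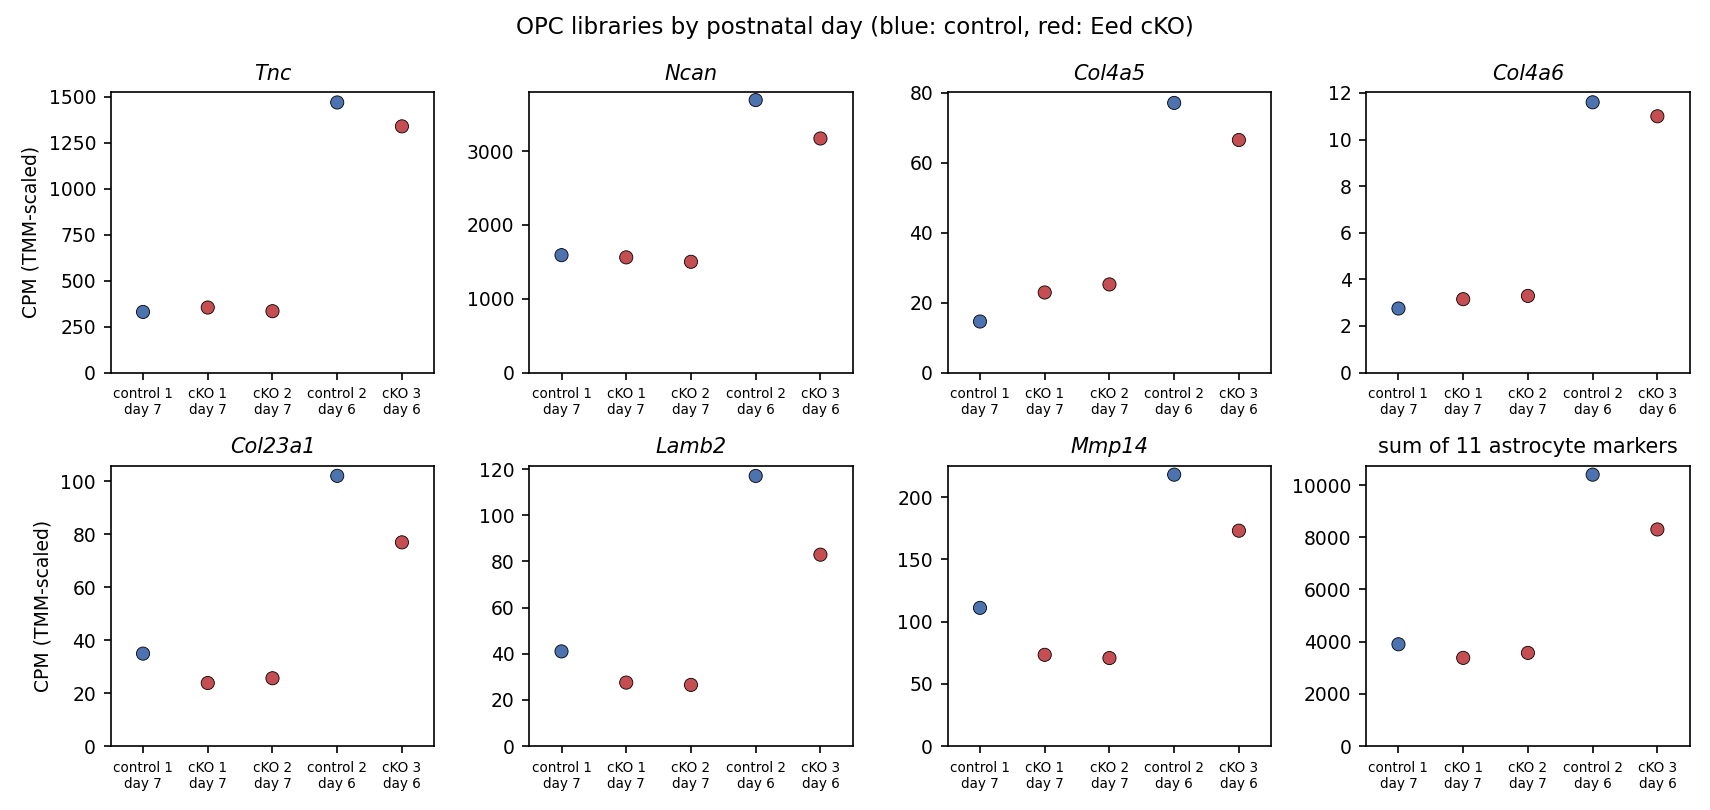
CPM of 7 matrix genes, and the summed CPM of 11 astrocyte markers, in each OPC library by postnatal day (blue: control, red: Eed cKO). In each panel the day 6 libraries lie above the 3 day 7 libraries, whichever the genotype.

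The control iOL libraries differed from each other in collagens. Library 2 was over 2-fold above library 1 in 14 members (13.1%) and below in 1 (0.935%), against 2.13% and 0.524% of all genes. They included Col14a1 (15-fold), Col28a1 (6.35), Col3a1 (5.97), Col1a1 (4.75), Col25a1 (3.42), Col15a1 (3.34) and Thbs1 (3.09), and Thbs4 was 6.14-fold lower. The chi-square per degree of freedom between these libraries was 56.9 over the members and 6.48 over all genes. It was 50.5 and 13.3 between the cKO iOL libraries, 373 and 106 between the control OPC libraries, and 7.94 and 7.67 between cKO OPC libraries 1 and 2. This value grows with the counts, so members with many counts weigh most in it. The fibroblast and meningeal marker sums of the control iOL libraries were 6.36 and 10.9 CPM, and those of pericyte markers 365 and 488 CPM. Col1a1 had 6.64 and 31.6 CPM in control iOLs and 6.39 and 8.35 CPM in cKO iOLs, so its value of −1.38 ± 0.60 rested on control library 2.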

How the data were processed

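RNA-seq libraries were processed before deposit with cutadapt 1.14, STAR 2.6.0 and featureCounts (Subread 1.6.2) on mm10, per the submitters' processing notes, and the deposited table holds raw counts for 13549 genes. Stranded and amplifying library kits were both used, per the labels' protocols, and the sources used here do not tie a kit to a library. Each gene had at least 1 count in every library and 10 in at least 4, so a minimum count of 10 removed 0 genes. Chromatin samples were not analysed here.

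Groups came from sample titles. The 4 group means were fitted over all 9 libraries (5 residual degrees of freedom) with edgeR 4.0.16 in R 4.3.3, by the quasi-likelihood test with TMM scaling, and p-values were adjusted by Benjamini-Hochberg over all genes. The biological coefficient of variation was 16.3%. Scripts were tested on simulated data. Alternatives were RLE scaling, other filters, DESeq2 1.42.0, a replicate block, a day term, only the groups compared and each library left out. The fit with day 6 libraries alone was chosen after seeing the data. Counting intervals are exact at 95% and cover counting error only. Levels per transcript length were planned and not made, since no transcript lengths were used here.

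Members and lists were chosen with earlier results of these data known. Named were up to 20 called members in each direction of each Eed cKO comparison, 12 in each differentiation comparison, every lectican, link protein, tenascin, elastic fibre gene, fibronectin and TIMP, and up to 3 called genes of each list. Others named, and the 6 promoters, were chosen after their values were seen. Symbols of 106 of 107 members matched RefSeq. The result of 1 gene that this rule would name is not reported here.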

Additional observations from a re-analysis of the deposited data

Results flagged for a closer look

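For 8 matrix genes the effect of Eed cKO differed between the stages by the interaction test of edgeR, given here as the log2 effect in iOLs minus that in OPCs. The difference was 2.21 for Fbln5, 1.75 for Fbln1, 1.6 for Matn2, 1.34 for Col26a1 and 1.23 for Eln, all larger in iOLs. It was −2.87 for Adamts18, −2.26 for Col9a1 and −1.3 for Col11a1, all larger in OPCs. None of the 8 calls was kept in every fit with 1 library left out. Col9a1 lost its call without control iOL library 1 alone (adjusted p = 0.0576), and Fbln5 without either control iOL library (adjusted p = 0.0626 and 0.071). Adamts18 lost it without any 1 iOL library (adjusted p = 0.0527 to 0.071). Eln, Fbln1, Col26a1, Matn2 and Col11a1 lost it without several of the cKO OPC libraries 1 and 2 and the iOL libraries, with adjusted p up to 0.0908, 0.181, 0.175, 0.0912 and 0.181. Col11a1 and Matn2 also lost it with day 6 alone (adjusted p = 0.0603 and 0.061).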

How the results depend on the processing

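In OPCs 14 members were higher and 0 lower. The higher count was 25 with the replicate block, 24 with a day term, 26 by DESeq2, 7 with only the groups compared, 2 with day 6 alone and 6 to 33 with 1 library left out (6 without cKO OPC library 1 or 2, 9 without control 1, 26 without cKO 3, 33 without control 2). The 14 were all kept under the block, the day term and DESeq2. The lower count was 3, 7 and 1 under those, and 0 to 4 with 1 library left out. In iOLs 26 were higher, against 44 with a day term, 43 with only the groups compared, 43 with day 6 alone and 11 to 33 with 1 library left out, and 5 were lower, against 0 to 7. For the difference between stages the higher count was 5, against 11 with the replicate block, 17 with a day term, 10 by DESeq2, 10 with day 6 alone and 0 to 11 with 1 library left out. The lower count was 3, against 7, 12 and 10 under the block, day term and DESeq2, and 1 to 11. Differentiation counts stayed within 1.5 times. Hapln2 in controls reversed from −0.03 to 1.01 with a day term and 1.06 with day 6 alone, and the cause of these shifts was not tested. Timp4 missed the threshold in 12 of 17 alternative fits in OPCs and in 11 of 17 in iOLs. Among the fits where it passed in OPCs were the block (−0.909, adjusted p = 0.0158), the day term, DESeq2 and the fit without cKO OPC library 3. In iOLs they included these 4 and the fit with only the groups compared. The labels do not say that a number marks a shared animal or batch, so the numbers were not taken as pairs. Deviations of same-numbered libraries correlated at 0.326 and −0.362 in OPCs and 0.254 in iOLs. These values cannot decide on pairing, since the deviations of 2 libraries in a group mirror each other. Control OPC library 2 and cKO OPC library 2 are also of different postnatal days. Only the groups compared gave no separate fit for the difference. With 2 or 3 libraries a group, and under 50 counts in a group for Hapln2, Matn1, Col25a1 and Lama3, small changes could not be detected.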
